A study of Canis lupus familiaris with 22 samples.

Results

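The 10 genes described here form the core of the machinery that moves a cell through G1 and into S phase. They are the D-type cyclins CCND1, CCND2 and CCND3, the E-type cyclins CCNE1 and CCNE2, the cyclin-dependent kinases CDK4 and CDK6, the retinoblastoma gene RB1 and the transcription factors E2F1 and E2F3. They were listed by name for their roles, with earlier results of these data known, and all 10 were found among 15115 genes measured in canine invasive urothelial carcinoma (iUC) and normal canine bladder. They are covered by 15 of 42924 probe sets, a probe set being a group of short probes that reports a transcript. CCND1, CCNE1, CDK4, CDK6 and RB1 have 2 probe sets each, whose mean stands for the gene, and the other 5 genes have 1.

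In G1 the D-type cyclins are made in response to growth signals and activate CDK4 and CDK6, which phosphorylate the RB1 protein. RB1 holds E2F factors inactive until it is phosphorylated, and the freed E2F factors switch on genes of DNA replication together with the E-type cyclins, whose kinase CDK2 completes the phosphorylation of RB1. In human bladder cancer the axis is known for losses of RB1 and of the CDK inhibitor gene CDKN2A and for gains of CCND1 and E2F3.

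The tumor samples were 18 high grade iUC biopsies taken by cystoscopy from pet dogs with spontaneous disease, before any therapy. The reference was bladder tissue of 4 healthy, age-matched dogs without tumors, and no separation of the urothelium from the bladder wall is stated. Each sample came from its own dog and was hybridised to its own Affymetrix canine 2.0 array. The authors deposited log2 values in which each probe set is centred on its median across the 22 arrays. A value is therefore a distance from that midpoint in log2 units, it is not an expression level, and it cannot be ranked against the value of another gene. A gene was called when its adjusted p from limma was 0.05 or below, with adjustment over all genes, and its fold change was 2 or more. In bulk tissue, fewer cells of a type and less RNA per cell cannot be told apart, and with 4 normal arrays the number of arrays limits the precision of every comparison.

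The iUC arrays fell into 2 sets by the signal of 17 control probe sets named Tag. In 7 arrays (replicates 3, 4, 5, 6, 7, 13 and 18) the mean Tag value was 0.277 to 0.460, in the other 11 it was -0.128 to 0.131, and in the 4 normal arrays -0.215 to -0.0768. These sets are called high Tag and low Tag here. The mean of 7 GAPDH and actin control probe sets was -1.28 to -0.483 in the high Tag and -0.785 to 0.376 in the low Tag arrays. The 2 sets also differed over the whole array. The mean of all probe sets was -0.10 to -0.07 in high Tag and 0.07 to 0.09 in low Tag arrays, and their SD 0.55 to 0.80 and 0.37 to 0.50. Nothing in the labels parts the samples this way, and 15.9% of all genes had every high Tag value above every low Tag value and 12.8% had every one below. Among the normal arrays, replicates 3 and 4 correlated at r = 0.93 across probe sets against 0.43 to 0.76 for the other pairs, and normal replicate 1 alone shares a title ending with the iUC samples. The mean of 10 smooth muscle markers was -0.71 to 1.67 in iUC and 3.12 to 4.79 in normal bladder, with 8 of the 10 markers called lower in iUC. Fibroblast markers were also lower (7 of 8 called), urothelium markers were higher (8 of 13 called, KRT5 and KRT19 not measured), and their means were -1.21 to 1.21 and -1.29 to 0.78 in iUC against 1.34 to 2.80 and -3.56 to -0.32 in normal bladder. Centred values have no zero of expression, so none of these markers can be said to be absent from a sample.

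Of the 10 genes, 4 were called higher in iUC (CCNE2, E2F3, CCND3 and E2F1) and 1 was called lower (CCND1), against a background of 3.68% of all genes called higher and 8.64% called lower. CCNE1, CCND2, CDK4, CDK6 and RB1 were not called. E2F1 alone had all 18 iUC values above all 4 normal values, which held for 3.22% of all genes. The median log2 fold change of the 10 genes was 0.30, beside 0.08 over all genes. Calls of higher made up 29.9% of all calls, against 40.6% after quantile normalization and 42.8% after 75th percentile scaling. Single probe sets gave 4 called higher and 2 called lower of the 15, beside 3.9% and 10.7% of all probe sets.

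Which of the 10 genes were called changed with the samples used. Without the 7 high Tag arrays CCNE2 and CCND3 were called higher and none lower (background 5.23% and 5.96%). Without the 11 low Tag arrays E2F1 and E2F3 were called higher and CCND1 lower (background 7.16% and 17.4%). After quantile normalization CCNE2 alone was called higher and none lower (background 1.95% and 2.85%), and with the title ending as a block none was called in either direction (background 0.0992% and 2.57%). CCND1 and CCND3 therefore kept their sign and not their call, and no gene of the 10 was called under all of these settings.

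**Figure D1:**
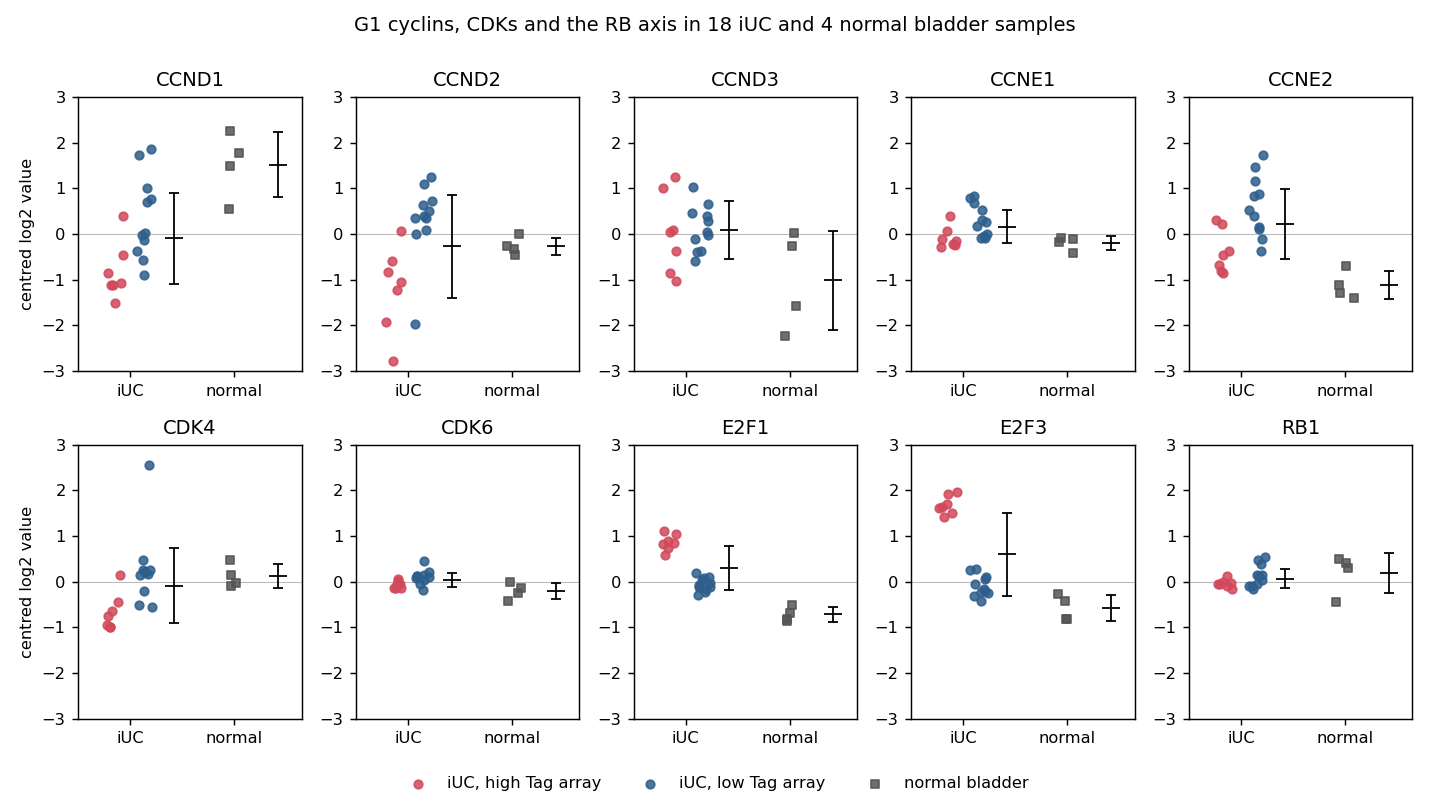
Centred log2 value of each gene (y axis) in 18 iUC samples, colored by array set, and in 4 normal bladder samples (x axis). Points are samples and the cross-bars give the mean ± SD of each group. E2F1 lies higher in all iUC than in all normal samples, as do 3.22% of all genes, and 1 iUC sample stands at 2.55 for CDK4. E2F1 and E2F3 lie higher in all 7 high Tag arrays than in the 11 low Tag arrays, as do 15.9% of all genes.

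CCND1, the D-type cyclin best known as an oncogene, was lower in iUC. Its value was lowest at -1.52, at the median -0.25 and highest at 1.87 in iUC, against 0.56, 1.48, 1.78 and 2.27 in normal bladder replicates 1 to 4. Thus 13 of 18 iUC samples lay below every normal sample, while iUC replicates 12 (1.87) and 16 (1.74) lay within the upper part of the normal range. The means were -0.09 ± 0.99 in iUC (SD, n = 18) and 1.52 ± 0.72 in normal bladder (SD, n = 4), a log2 fold change of -1.61 (SE 0.51, 3.06-fold lower, adjusted p = 0.018). Both CCND1 probe sets were called, at -1.38 (adjusted p = 0.03) and -1.85 (adjusted p = 0.013). The call was lost without the high Tag arrays, where the log2 fold change was -1.15 (adjusted p = 0.0708), and after quantile normalization at -0.95 (adjusted p = 0.197). It was also lost without normal replicate 3 (-1.53) or 4 (-1.36), the highest adjusted p without 1 normal sample being 0.0927. The smooth muscle mean in normal replicates 1 to 4 was 4.03, 3.12, 4.39 and 4.79 and the fibroblast mean 2.19, 1.34, 2.80 and 2.71, above every iUC sample in each case, and the part of these cells in the CCND1 difference was not tested.

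CCND2, a D-type cyclin with a narrower tissue range, averaged -0.27 ± 1.14 in iUC (SD, n = 18) and -0.26 ± 0.19 in normal bladder (SD, n = 4), so that the means were alike and the spread was wider in iUC. Values ran from -2.77 through a median of 0.09 to 1.24 in iUC, against -0.46, -0.01, -0.33 and -0.27 in normal bladder. Every iUC sample lay outside the narrow normal range, 11 above it and 7 below it. The log2 fold change was -0.01 (SE 0.55, 95% interval -1.16 to 1.15, adjusted p = 0.994), so a change of about 2-fold in either direction lies within the interval. The mean was -1.19 in the 7 high Tag arrays, 0.31 in the 11 low Tag arrays and -0.26 in normal bladder, and the fold change took the opposite sign, 0.58 (adjusted p = 0.279), without the high Tag arrays.

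CCND3, the remaining D-type cyclin, was higher in iUC. Its values were -1.04, 0.05 and 1.25 at the lowest, median and highest of the iUC samples, against -0.25, 0.02, -1.58 and -2.24 in normal replicates 1 to 4. Normal replicates 3 and 4 lay below every iUC sample, and 10 of 18 iUC samples exceeded all 4 normal samples. The log2 fold change was 1.10 (SE 0.38, 2.15-fold, adjusted p = 0.0304), from means of 0.09 ± 0.64 in iUC (SD, n = 18) and -1.02 ± 1.07 in normal bladder (SD, n = 4). Without the high Tag arrays it was 1.14 and remained called (adjusted p = 0.0248), whereas without the low Tag arrays it was 1.04 and not called (adjusted p = 0.105). The call rested on normal replicates 3 and 4, being lost without replicate 3 (0.91), without replicate 4 (0.69, adjusted p = 0.199) and with both averaged into 1 sample (0.80, adjusted p = 0.16). In the same normal replicates 1 to 4 the urothelium marker mean was -0.68, -0.32, -2.02 and -3.56, low in the same 2 samples as CCND3, and its part in the CCND3 result was not tested.

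CCNE2, an E-type cyclin and itself an E2F target, was higher in iUC. It had values of -0.86, 0.19 and 1.73 at the lowest, median and highest of the iUC samples, against -0.69, -1.12, -1.40 and -1.28 in normal bladder. All but 2 of the iUC samples (16 of 18) lay above every normal sample. The means were 0.23 ± 0.77 in iUC (SD, n = 18) and -1.12 ± 0.31 in normal bladder (SD, n = 4), a log2 fold change of 1.35 (SE 0.38, 2.56-fold, adjusted p = 0.00949). It was the only one of the 5 called genes to keep its call in all 22 fits that left out 1 sample, with log2 fold changes from 1.26 to 1.50. Without the high Tag arrays it was 1.74 (adjusted p = 0.00118). Without the low Tag arrays it was 0.75 (adjusted p = 0.0193), short of a 2-fold change.

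CCNE1, the E-type cyclin known for amplification in human tumors, was not called. Values were -0.28, 0.03 and 0.84 at the lowest, median and highest of the iUC samples, against -0.41, -0.18, -0.11 and -0.08 in normal bladder, and 11 of 18 iUC samples exceeded all normal samples. This gave a log2 fold change of 0.35 (SE 0.18, 95% interval -0.03 to 0.73, adjusted p = 0.126), an interval that does not reach 2-fold. Its probe sets gave 0.54 (adjusted p = 0.0644) and 0.17 (adjusted p = 0.434). The mean was -0.07 in the high Tag and 0.31 in the low Tag arrays. The fold change was 0.50 (adjusted p = 0.0373) without the high Tag arrays and 0.12 (adjusted p = 0.43) without the low Tag arrays. CCNE1 also passed the p threshold, under 2-fold, with 75th percentile scaling (adjusted p = 0.0394) and array weights (adjusted p = 0.038), not after quantile normalization (adjusted p = 0.211).

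CDK4, a catalytic partner of the D-type cyclins, did not differ between the groups beyond the spread of the samples, but 1 tumor stood apart. iUC values were -1.0, -0.02 and 2.55 at the lowest, median and highest, against 0.48, -0.10, 0.15 and -0.02 in normal bladder. The value of 2.55 belongs to iUC replicate 2, the next highest iUC sample being at 0.48. This is 3.86 scaled median absolute deviations above the iUC median, and both CDK4 probe sets show it, at 2.35 and 2.75. Between the groups the log2 fold change was -0.22 with all samples (SE 0.41, 95% interval -1.06 to 0.63, adjusted p = 0.679) and -0.37 without iUC replicate 2. The mean was -0.66 in the high Tag arrays and 0.28 in the low Tag arrays, against 0.13 in normal bladder, and the fold change was 0.15 without the high Tag arrays and -0.79 without the low Tag arrays (adjusted p = 0.00713, under 2-fold).

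CDK6, the other D-cyclin kinase, passed the p threshold with a small change, at a log2 fold change of 0.25 (SE 0.09, 1.19-fold, adjusted p = 0.0436). It did not pass after quantile normalization (adjusted p = 0.188) or without the low Tag arrays (adjusted p = 0.151), and did without the high Tag arrays (adjusted p = 0.0202). Leaving out 1 sample gave an adjusted p of 0.0298 to 0.211 for normal and 0.0334 to 0.0533 for iUC samples. The 2 CDK6 probe sets disagreed. The probe set with the name ending _s_at, which marks probes shared between transcripts, averaged 0.08 ± 0.31 in iUC (SD, n = 18) and -0.45 ± 0.31 in normal bladder (SD, n = 4), with a log2 fold change of 0.53 (adjusted p = 0.0188) and 14 of 18 iUC samples above every normal sample. The other lay between -0.06 and 0.09 in iUC and between -0.03 and 0.16 in normal bladder, with a log2 fold change of -0.04 (adjusted p = 0.492). This probe set scarcely varied over the 22 arrays, and the CDK6 value is the mean of both. iUC replicate 1 had the highest CDK6 value at 0.45, 3.06 scaled median absolute deviations above the iUC median.

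RB1, the pocket protein that restrains E2F, was not called. Values were -0.17, -0.02 and 0.53 at the lowest, median and highest of the iUC samples, against -0.45, 0.50, 0.31 and 0.41 in normal bladder. Normal replicate 1 was the lowest of all 22 samples, the other 3 normal samples lay in the upper part of the range, and no iUC sample lay below normal replicate 1. The log2 fold change was -0.13 (SE 0.14, 95% interval -0.42 to 0.17, adjusted p = 0.486), and without normal replicate 1 it was -0.34 (adjusted p = 0.0452), still under 2-fold. iUC replicates 12 (0.53) and 2 (0.48) were 3.38 and 3.04 scaled median absolute deviations above the iUC median, and no iUC sample stood as far below it. RB1 mRNA says nothing of the phosphorylation of its protein, which was not measured.

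E2F1, an activator of S-phase genes, was higher in every iUC sample than in any normal sample. Values were -0.29, 0.09 and 1.12 at the lowest, median and highest of the iUC samples, against -0.50, -0.87, -0.81 and -0.68 in normal bladder. The groups differed by a log2 fold change of 1.02 (SE 0.24, 95% interval 0.51 to 1.52, 2.02-fold, adjusted p = 0.00309). Its size depended on the array set, with 0.58 to 1.12 in the high Tag arrays and -0.29 to 0.20 in the low Tag arrays. Such a full separation upward held for 15.9% of all genes. Set against normal bladder alone, the 11 low Tag arrays gave 0.66 (adjusted p = 0.000119, 1.58-fold) and the 7 high Tag arrays 1.58 (adjusted p = 1.64e-06, 2.98-fold). E2F1 therefore passed the p threshold in both sets, and 2-fold was not reached without the high Tag arrays. With a fold so near the threshold, the call was kept in 2 of 4 fits that left out a normal sample and 12 of 18 that left out an iUC sample, with an adjusted p of at most 0.0173 in all of them.

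E2F3, an activator of the same class and a gene gained in human bladder tumors, showed a wider gap between the array sets. Values were -0.43, 0.19 and 1.95 at the lowest, median and highest of the iUC samples, against -0.27, -0.82, -0.42 and -0.81 in normal bladder, and 16 of 18 iUC samples exceeded all normal samples. The 7 high Tag arrays lay at 1.43 to 1.95 and the 11 low Tag arrays at -0.43 to 0.27. All high Tag values also lay above all low Tag values for 15.9% of all genes. Its log2 fold change was 1.18 with all samples (SE 0.45, 2.26-fold, adjusted p = 0.0447), 2.26 (adjusted p = 8.32e-07) without the low Tag arrays and 0.49 (adjusted p = 0.0129, 1.41-fold) without the high Tag arrays. The call was the least stable of the 5, being kept in 0 of 4 fits that left out a normal sample (adjusted p of 0.0554 to 0.126) and in 11 of 18 that left out an iUC sample, and it was lost in the methods' unpaired test (adjusted p = 0.0551). What parts the 2 array sets was not tested.

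**Figure D2:**
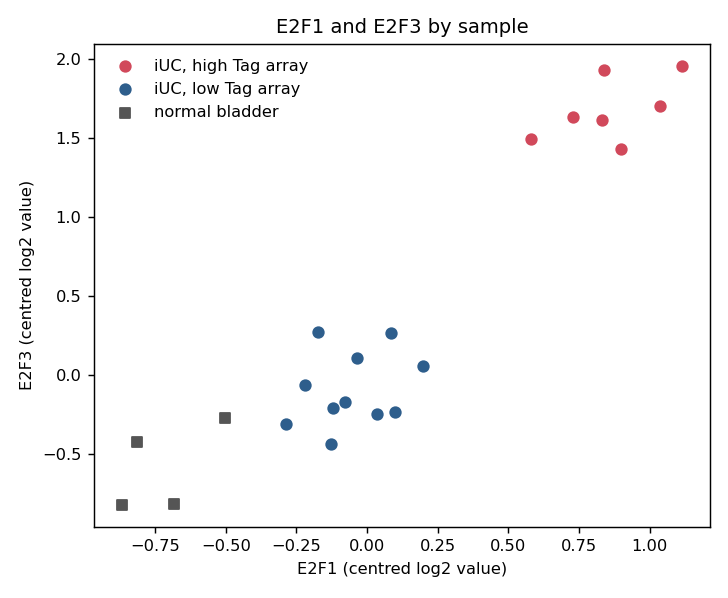
E2F1 (x axis) against E2F3 (y axis), both as centred log2 values, with 1 point per sample. The 7 high Tag iUC arrays lie at 0.58 to 1.12 for E2F1 and 1.43 to 1.95 for E2F3, above the 11 low Tag iUC arrays. The same separation is seen for 15.9% of all genes. The 4 normal samples lie lowest for E2F1.

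**Figure D3:**
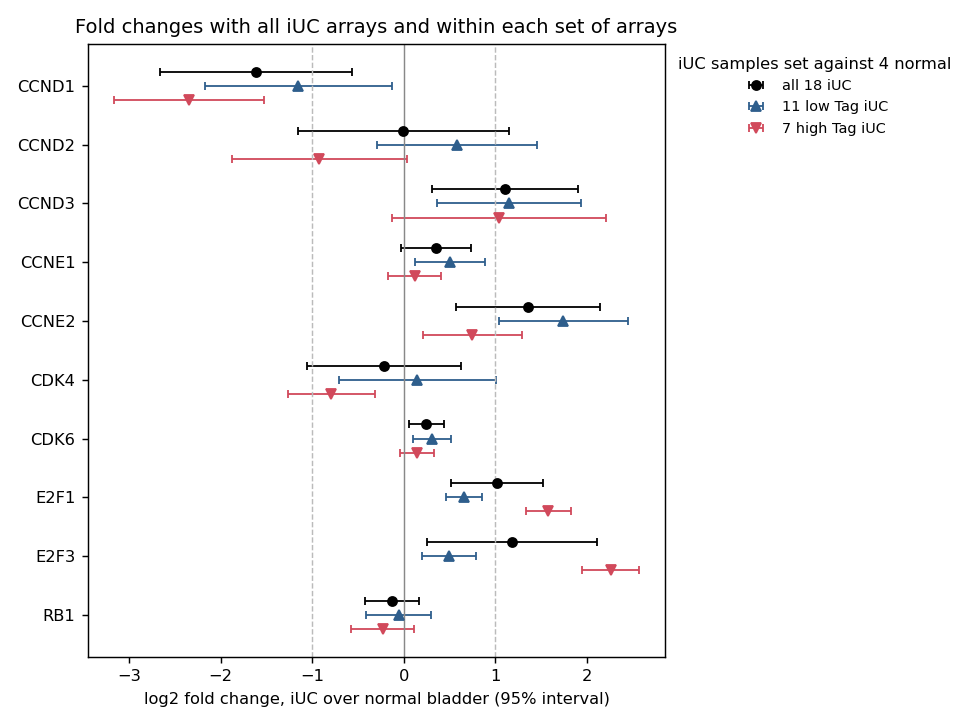
Log2 fold change of iUC over normal bladder (x axis) for each gene (y axis), with 95% intervals, using all 18 iUC samples, the 11 low Tag samples or the 7 high Tag samples against the same 4 normal samples. Dashed lines mark 2-fold. The sign stayed the same in all 3 fits except for CCND2 (0.58 with low Tag) and CDK4 (0.15 with low Tag), and E2F3 moved most, between 0.49 and 2.26.

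Close relatives were compared within each sample, which removes a shift common to both genes. For 6 pairs of genes the per-sample difference was compared between iUC and normal bladder with a two-sided exact permutation test over the 7315 ways to choose 4 of 22 samples, whose smallest p is 0.000273. CCND1 minus CCND2 averaged 0.18 in iUC and 1.79 in normal bladder, a difference of -1.61 (exact p = 0.00219, adjusted p = 0.00602), with 15 of 18 iUC samples below every normal sample. CCND1 minus CCND3 averaged -0.18 in iUC and 2.54 in normal bladder, a difference of -2.72 (exact p = 0.00301, adjusted p = 0.00602), again with 15 of 18 below. CCND1 thus changed by a different amount from both other D-type cyclins. In normal replicates 1 to 4, CCND1 minus CCND3 was 0.82, 1.46, 3.36 and 4.51, highest in the closely alike replicates 3 and 4. A difference in cell types that moves 1 gene of a pair and not the other is not removed, and its part was not tested. CCNE1 minus CCNE2 averaged -0.07 in iUC and 0.93 in normal bladder, a difference of -1.0 (exact p = 0.00246, adjusted p = 0.00602), with 12 of 18 below, so that CCNE2 moved up relative to CCNE1. The other 3 pairs did not pass, with differences of 1.11 for CCND3 minus CCND2 (adjusted p = 0.166), -0.46 for CDK4 minus CDK6 (adjusted p = 0.357) and -0.16 for E2F1 minus E2F3 (adjusted p = 0.529). The 3 called differences kept their call without the high Tag arrays and without each of the normal samples.

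Genes that act around the 10 were taken from 5 lists, and 54 of the 59 listed genes were measured, of which 6 were called higher and 3 lower, beside 3.68% and 8.64% of all genes. The share called higher was above that of all genes and the share called lower below it. None of the 5 measured CDK inhibitors was called, at a median log2 fold change of -0.10. CDKN2D, an inhibitor of CDK4 and CDK6, passed the p threshold at -0.69 (adjusted p = 0.0047) without reaching 2-fold, with 17 of 18 iUC samples below every normal sample. CDKN2A, which encodes p16, and CDKN1C were not measured.

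Of 9 other pocket proteins, E2F and DP factors, 1 was called higher and 1 lower, at a median of -0.03, where the background of 8.64% called lower already amounts to about 1 gene of 9. E2F8, a repressor induced late in G1, lay at -0.53, 0.26 and 0.88 at the lowest, median and highest of the iUC samples, against -0.80, -1.33, -1.14 and -1.07 in normal bladder. All iUC values lay above all normal values, as for 3.22% of all genes, with a log2 fold change of 1.31 (SE 0.20, adjusted p = 5.78e-05). TFDP2, a dimerization partner of E2F factors, lay at -0.74, -0.11 and 0.73 at the lowest, median and highest of the iUC samples, against 0.84, 2.70, 3.22 and 3.33 in normal bladder. All 18 iUC values lay below the 4 normal values, which held for 4.47% of all genes, and the log2 fold change was -2.66 (SE 0.30, adjusted p = 1.01e-06), a larger fall than that of any of the 10 genes. TFDP1, the other partner, had a log2 fold change of -0.09 (adjusted p = 0.466).

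Of CDK2 and its activators, 7 were measured, with 1 called higher and 1 lower, beside 3.68% and 8.64% of all genes. Their median was -0.23 with all samples and 0.29 without the high Tag arrays. CCNA2, the S-phase cyclin partner of CDK2, was higher in all 18 iUC samples at 1.59 (SE 0.38, adjusted p = 0.00326). MNAT1, a subunit of the CDK-activating kinase, was lower at -1.21 (SE 0.40, adjusted p = 0.0252) and fell short of 2-fold without the high Tag arrays (-0.64). CDC25A, a phosphatase that activates CDK2, was above every normal sample in all 18 iUC samples with a log2 fold change of 0.56 (adjusted p = 0.000559), under 2-fold. The full separation upward seen for CCNA2 and CDC25A held for 3.22% of all genes. CDK2 itself had a log2 fold change of 0.26 (adjusted p = 0.0296). CCNH and CDK7, the partners of MNAT1 in the CDK-activating kinase, had -0.35 (adjusted p = 0.0329) and -0.70 (adjusted p = 0.107).

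The next list holds ubiquitin ligase components that act on the cyclins, and also USP2, an enzyme that removes ubiquitin. Among its 9 measured genes 1 was called, lower in iUC, close to the 8.64% of all genes called lower, at a median of -0.34. FBXO4, an F-box protein reported to direct the breakdown of cyclin D1, was lower in all 18 iUC samples, at -0.35, -0.06 and 0.46 at the lowest, median and highest, against 0.75, 1.64, 2.25 and 2.68 in normal bladder. Its log2 fold change was -1.89 (SE 0.21, adjusted p = 7.83e-07). All 18 iUC values lay below all 4 normal values for 4.47% of all genes. FBXW7, which directs the breakdown of cyclin E, passed the p threshold at -0.88 (adjusted p = 0.00216), under 2-fold. The normal values of FBXO4 and TFDP2 were both lowest in normal replicate 1, as were those of CCND1 and RB1. This was not particular to these genes. Replicate 1 was also the lowest normal sample for others, such as FBXW7 (-0.15) and MNAT1 (-0.10), and the highest for some, such as E2F4 (0.30). The SD over all probe sets was 0.65 in normal replicate 1 and 0.74, 0.92 and 1.01 in replicates 2 to 4.

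E2F target genes act in DNA replication and nucleotide synthesis. Of 24 measured, 4 were called higher and 0 lower (3.68% and 8.64% of all genes), and 11 passed the p threshold upward at any fold, which held for 18.2% of all genes. Their median change was 0.37 on the log2 scale, beside 0.08 over all genes. TK1 and RRM2, enzymes of nucleotide supply, had 2.61 (adjusted p = 0.000469) and 2.07 (adjusted p = 0.00104), each with 16 of 18 iUC samples above every normal sample. MYBL2, a transcription factor of the cell cycle, had 1.41 (adjusted p = 7.47e-05) and MCM7, a subunit of the replicative helicase, 1.01 (adjusted p = 0.000554), both without overlap between the groups. Such a separation, with iUC above, held for 3.22% of all genes. Other members were not called, among them PCNA at 0.18 (adjusted p = 0.748) and TYMS at -0.65 (adjusted p = 0.337). Without the high Tag arrays 5 were called higher, beside 5.23% of all genes, and the median was 0.64.

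**Figure D4:**
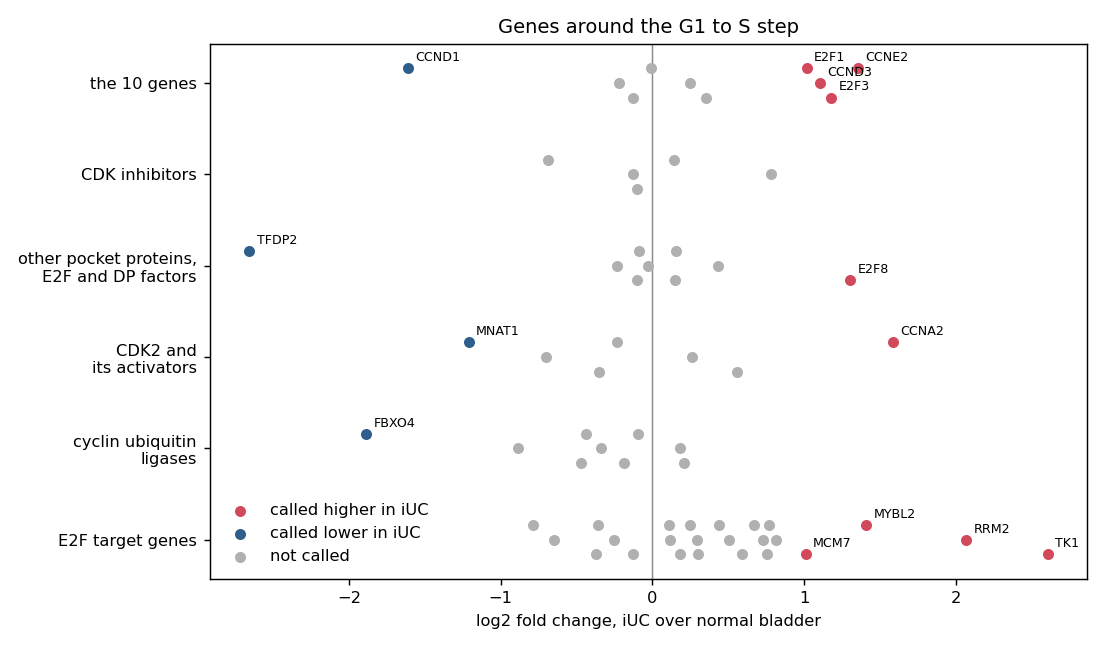
Log2 fold change of iUC over normal bladder (x axis) for the 10 genes and 5 lists of related genes (y axis, 1 point per gene, spread vertically for legibility). Red points are called higher in iUC, blue points lower, and grey points were not called. TFDP2 at -2.66 and TK1 at 2.61 lie farthest from 0.

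The 10 genes were then set against the mean of the measured E2F targets among the iUC samples, within each array set, as 20 relations. The target mean was -0.67 to -0.02 in the high Tag arrays, -0.39 to 0.75 in the low Tag arrays and -0.57 to -0.17 in normal bladder. E2F1 and E2F3, by contrast, were higher in every high Tag array than in any low Tag array. The relations below hold within a set and do not cover this difference between the sets. E2F1 had Pearson's r = 0.84 in the 7 high Tag arrays (exact permutation p = 0.0206, adjusted p = 0.138, Spearman's rho = 0.89 with p = 0.0123, adjusted p = 0.0998) and r = 0.71 in the 11 low Tag arrays (permutation p = 0.0147, adjusted p = 0.138, rho = 0.69 with p = 0.0224, adjusted p = 0.0998). CCNE2 had r = 0.82 in the high Tag arrays (exact permutation p = 0.0294, adjusted p = 0.147, rho = 0.89 with p = 0.0123, adjusted p = 0.0998) and r = 0.72 in the low Tag arrays (permutation p = 0.0119, adjusted p = 0.138, rho = 0.68 with p = 0.025, adjusted p = 0.0998). None of the 20 passed after adjustment. Without the 2 samples farthest from the median, r was 0.64 and 0.60 for E2F1 and 0.66 and 0.50 for CCNE2 in the high and low Tag arrays. E2F3 had r = 0.41 in the high Tag arrays (exact permutation p = 0.357, adjusted p = 0.554, rho = 0.57 with p = 0.2, adjusted p = 0.4) and r = -0.33 in the low Tag arrays (permutation p = 0.318, adjusted p = 0.554, rho = -0.30 with p = 0.372, adjusted p = 0.62).

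CDK4 in iUC replicate 2 was followed along the genome after its value had been seen. Gene order was taken from the RefSeq annotation of the dog assembly UU_Cfam_GSD_1.0, used only to say which genes neighbour each other. Of the 40 measured genes among the 25 on each side of CDK4, 21 (52.5%) had their highest iUC value in replicate 2, as did 447 of all 15115 genes (2.96%). The other iUC samples held the highest value of between 0 and 6 of these 40 neighbours. Of the 18 measured among the nearest 10 on each side, 13 were highest in replicate 2. MARCHF9, the next gene, was at 4.26 with the next iUC sample at 0.94, and LRIG3 was at 3.13 (next 0.70), CTDSP2 at 2.96 (next 0.92), ATP23 at 2.69 (next 1.09) and TSFM at 1.60 (next 0.10). Not every neighbour was raised, with AGAP2 at -0.0026, CYP27B1 at 0.47 (next higher sample 0.54) and SLC16A7 at -0.27, the lowest of the 18. Of the 25 genes in which replicate 2 led the next iUC sample by most, 19 lie on the chromosome of CDK4, which holds 3.41% of the measured genes. MDM2, an inhibitor of p53 on the same chromosome, was also highest in replicate 2, at 1.85 against 1.10 in the next iUC sample. The cause was not tested.

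**Figure D5:**
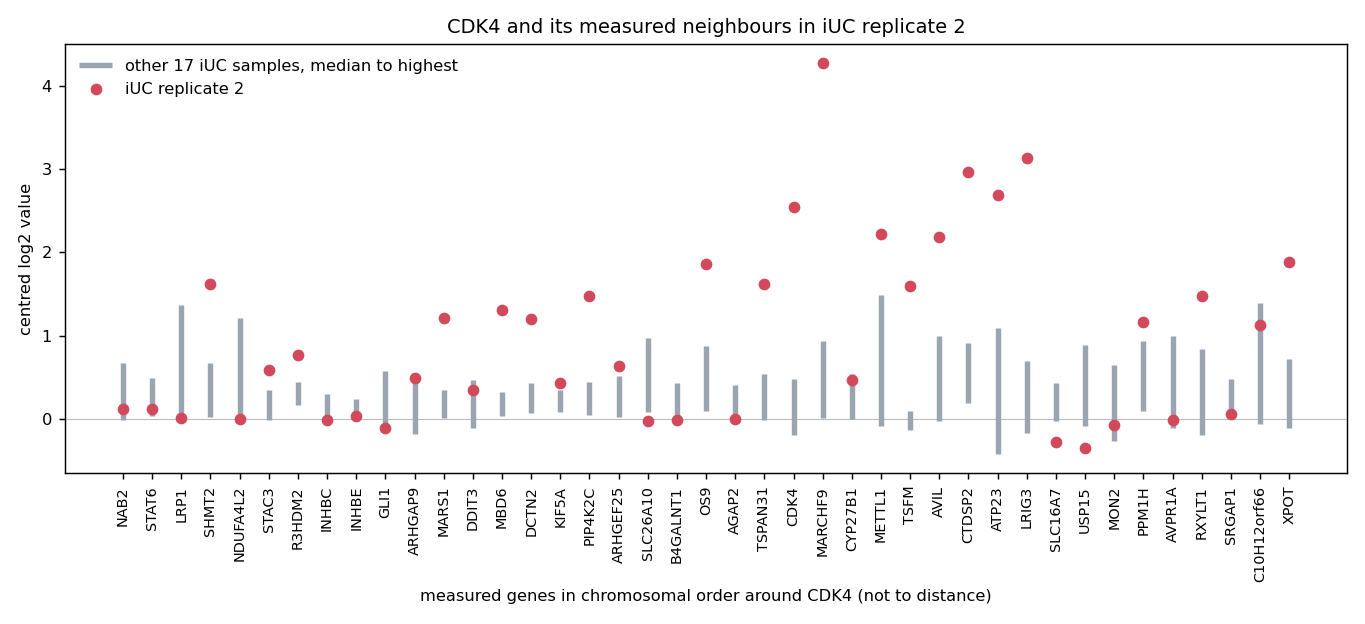
Centred log2 value (y axis) of CDK4 and its 40 measured neighbours in their order along the chromosome (x axis, not to distance). Red points are iUC replicate 2 and grey bars run from the median to the highest of the other 17 iUC samples, with MARCHF9 at 4.26 and CDK4 at 2.55 among the 21 neighbours and CDK4 that stand above their bar.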

How the data were processed

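Affymetrix canine 2.0 arrays were hybridised with RNA of 18 iUC and 4 normal bladder samples from dogs. The authors processed the arrays in GeneSpring GX (version 12.6.1) and deposited log2 values centred on the median of each probe set. How arrays were normalized and probes summarised is not given in the sources used. Of 43035 probe sets, 111 controls were left out, and 29254 of the rest had 1 gene symbol, 439 several and 13231 none. Only probe sets with 1 symbol were averaged into 15115 genes. Centred values keep no level, so no filter on low expression was applied.

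Groups came from the sample labels. A linear model without covariates was fitted to every gene by lmFit and moderated by eBayes (limma 3.58.1, R 4.3.3), and p-values were adjusted by the Benjamini-Hochberg method over every gene, or over every probe set where single probe sets are given. Permutation tests used scipy 1.17.1, exact or with 100000 permutations for 11 samples. The code was tested on simulated data. Alternatives were quantile normalization, 75th percentile scaling, array weights, an unpaired test without moderation, other choices of probe set, the replicate number or title ending as a block, normal replicates 3 and 4 averaged, each array set left out, and each sample left out.

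All 10 genes were named. From each list up to 4 called genes of the largest change were named, with other genes, chosen after their values were seen, given as examples. The genes and lists were chosen with earlier results of these data known, so their counts are descriptions and no test over a list was made.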

Additional observations from a re-analysis of the deposited data

How the results depend on the processing

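The count of the 10 genes called higher (4) was 1 after quantile normalization and with the replicate block, 0 with the title ending as a block, 3 with the methods' unpaired test (E2F3 lost), and 2 with array weights, with normal replicates 3 and 4 averaged, without the high Tag arrays and without the low Tag arrays. Leaving out 1 sample gave 1 to 4 (1 without normal replicate 3, 2 without normal replicate 2 or 4 or without iUC replicate 3, 4, 5, 6, 13 or 18). The count called lower (1) was 0 after quantile normalization, with normal replicates 3 and 4 averaged, with either block and without the high Tag arrays, and 0 to 1 when 1 sample was left out (0 without normal replicate 3 or 4). Of 15 probe sets, 6 were called with all samples, beside 3.9% of all probe sets called higher and 10.7% lower. Without the high Tag arrays 2 were called, and the share of all probe sets is not given for that setting. Shares over all genes are given for all samples, quantile normalization, the title ending and each array set left out. In the other settings, fewer calls cannot be told from a general loss of calls. For the 5 lists, with 54 genes measured, 6 higher became 0 with the title ending as a block. The share of all genes called higher went from 3.68% to 0.0992% there. The 3 lower became 5 with the probe set of largest variance, 0 with either block and 13 without the low Tag arrays. Of all genes, 8.64% were called lower with all samples. This share was 2.57% with the title ending as a block and 17.4% without the low Tag arrays. Reversed signs were found for CCND2 (0.19 after quantile normalization, 0.11 after 75th percentile scaling, 0.42 with array weights, 0.59 with the replicate block, 0.19 with the title ending, 0.58 without the high Tag arrays, and -0.094 to 0.14 when 1 sample was left out), CDK4 (0.13 with array weights, 0.15 without the high Tag arrays), RB1 (0.043 after quantile normalization, 0.52 with the title ending) and E2F1 minus E2F3 (0.17 without the high Tag arrays). The cause was not tested. The 75th percentile scaling moved the median of all genes to 0.20, from 0.08. The same replicate number in both groups belongs to different dogs, and deviations of same-numbered samples correlated at -0.17, 0.06, -0.05 and 0.13, so the numbers do not pair the samples. With the title ending as a block the comparison rests on normal replicate 1, the only normal sample with the ending of the iUC samples. Centred values keep no signal over background, and 4 normal samples, 2 of them closely alike, limit every comparison.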

Other observations

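The genes most alike to each called gene, and to RB1, were found by Pearson's r over the 18 iUC samples after each array set was centred on its mean, a description over 15115 candidates with no test. Beside CCND1 these were RGS2 (0.86), CD44 (0.86) and FBXO2 (0.85), and beside CCND3 RBKS (0.84), LAPTM4A (0.81) and CHMP3 (0.80). CCNE2 was most like NCAPD3 (0.90), CDC25C (0.88) and KNTC1 (0.85), and E2F1 most like MCM5 (0.80), GINS2 (0.79) and DCK (0.76). MCM5 and GINS2 are also in the list of E2F targets. E2F3 was most like LOC479761 (0.92), MAP3K14 (0.91) and ZNF629 (0.91), and RB1 most like APLF (0.79), TMEM154 (0.78) and WDR76 (0.77).

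Each of the 10 genes was also set against the smooth muscle, fibroblast and urothelium marker means within each array set of iUC samples, 60 relations added after the values had been seen. None passed after adjustment in permutation tests. The smallest adjusted p for Pearson's r was 0.433, for E2F1 (0.81), E2F3 (0.77) and CDK6 (0.76) against smooth muscle in the high Tag arrays. For Spearman's rho it was 0.405, for CCND3 against smooth muscle in the high Tag arrays (-0.93). In the high and low Tag arrays CCND1 had r = 0.03 and 0.21 against smooth muscle and -0.02 and 0.15 against fibroblast markers. Against urothelium markers CCND1 had r = -0.72 and -0.51, and CCND3 had 0.03 and -0.22. With 7 and 11 samples, these tests cannot show that a relation is absent.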
